A study of Mus musculus with 37 samples.

Results

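Gata4, Gata5 and Gata6 are the 3 GATA factors among 48 factors that were delivered together to mouse embryonic fibroblasts. They were chosen by name and are 3 of the 27998 gene rows in the count tables, and 3 of the 43 pool factors that had a row. The pool's 5 microRNAs were left out here. The cells were embryonic fibroblasts of the ICR mouse strain, infected with retroviral vectors that carried the pool and collected 7 days later. Single cells were measured by Drop-seq, in which a droplet joins 1 cell with a barcoded bead that captures polyadenylated RNA. All 37 samples belong to 1 group, as repeated technical runs of the same biological replicate. Every cell had been exposed to the same pool, and no untreated cells were used here, so cells in which a GATA transcript was counted were compared with cells of the same library in which it was not. The labels name neither the promoter of the vectors nor the vectors each cell received. Transcripts of a delivered factor and of the cell's own gene are counted alike, and a cell that carries a factor without a count of it stays among the cells without it. Since all libraries are labelled as 1 biological replicate, p-values cover its technical spread and nothing beyond it.

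GATA factors are zinc-finger proteins that bind DNA at the letters GATA. GATA4, GATA5 and GATA6 act in the heart, the gut and other organs of mesoderm and endoderm, where they switch on genes together with partners such as the T-box factor TBX5 and the basic helix-loop-helix factor HAND2. GATA4 with MEF2C and TBX5 is a well-known mixture for turning fibroblasts towards cardiomyocytes, the beating muscle cells of the heart. GATA4 and GATA6 are also made in the mesothelium, the sheet of cells that lines body cavities and covers the heart as the epicardium. The study asked which combinations of factors move fibroblasts towards cell types of the heart.

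After removal of barcode copies, 8565 cells with 119803382 counts remained in 36 libraries of 70 to 548 cells. Technical replicates 4 and 6 shared 59 cell barcodes, against at most 4 for any other pair, and were treated as 1 library. The median cell held 8553 counts from 3568 genes, and library medians ran from 3563 to 15695 counts. Library names fall into 3 series: JD with 15 libraries, PZ47-PZ48 with 15 and PZ58 with 6. Fibroblast collagens were found in nearly every cell: Col1a1, Col1a2 and Col3a1 were all counted in 95.2% of cells, and in 93.9% of Gata4 cells, 100% of Gata5 cells and 95.8% of Gata6 cells. A "Gata6 cell" is used here for a cell with at least 1 Gata6 count, and likewise for the other factors.

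For some of the genes named below, all of them with a match, the 250 bases before the RefSeq gene start (GRCm38.p6) are shown. They let a reader see where the GATA letters lie. Capitals mark each match. The letters searched were AGATAA as well as AGATAG, and those with a leading T in place of A, which are TGATAA as well as TGATAG. Both strands were searched, and a match on the other strand is printed as its reverse complement, such as CTATCT. Upk3b, a membrane protein of mesothelium and bladder lining (chr5:136038246-136038495, plus strand), held 1 match that starts at base -32. Myh6, the alpha heavy chain of heart myosin (chr14:54966608-54966857, minus strand), held 1 at -235. Mybpc3, cardiac myosin-binding protein C (chr2:91117894-91118143, plus strand), held 1 at -131 and 1 at -61. Myl7, the myosin light chain of the atrium (chr11:5898783-5899032, minus strand), held 1 at -42. Nppa, the atrial natriuretic peptide (chr4:148000472-148000721, plus strand), held 1 at -122.
Upk3b: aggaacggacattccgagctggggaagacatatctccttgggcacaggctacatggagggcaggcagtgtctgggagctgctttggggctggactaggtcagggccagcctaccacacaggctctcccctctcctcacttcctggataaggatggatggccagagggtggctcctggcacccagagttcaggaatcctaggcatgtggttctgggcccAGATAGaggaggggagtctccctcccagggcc
Myh6: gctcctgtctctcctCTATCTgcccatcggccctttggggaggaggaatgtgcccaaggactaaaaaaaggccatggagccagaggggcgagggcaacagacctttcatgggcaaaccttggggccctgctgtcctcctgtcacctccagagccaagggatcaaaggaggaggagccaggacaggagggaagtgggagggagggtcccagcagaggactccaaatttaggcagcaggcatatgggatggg
Mybpc3: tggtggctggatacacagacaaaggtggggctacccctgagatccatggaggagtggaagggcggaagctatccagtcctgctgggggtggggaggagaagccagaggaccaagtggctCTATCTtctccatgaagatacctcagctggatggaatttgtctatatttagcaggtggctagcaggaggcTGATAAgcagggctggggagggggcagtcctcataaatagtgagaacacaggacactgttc
Myl7: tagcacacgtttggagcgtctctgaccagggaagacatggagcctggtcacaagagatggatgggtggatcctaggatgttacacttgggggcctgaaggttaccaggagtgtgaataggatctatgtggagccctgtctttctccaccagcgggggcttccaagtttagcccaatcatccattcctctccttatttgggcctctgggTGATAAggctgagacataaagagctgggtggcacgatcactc
Nppa: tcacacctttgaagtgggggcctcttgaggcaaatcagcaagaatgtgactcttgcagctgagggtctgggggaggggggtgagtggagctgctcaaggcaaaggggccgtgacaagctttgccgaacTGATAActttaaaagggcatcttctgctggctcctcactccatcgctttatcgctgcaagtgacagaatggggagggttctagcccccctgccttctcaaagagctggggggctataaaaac

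Such a match is a description of letters, not evidence that a GATA factor binds there. Of all 32851 mouse promoters of this length in the table, 26.5% held at least 1 match. The shares were 8 of 13 promoters (61.5%) for heart-restricted genes, 6 of 13 (46.2%) for mesothelial genes, 35.5% for cardiomyocyte genes, 22.2% for fibroblast genes and 7.14% for skeletal muscle genes. Of the genes tested with Gata6, 17.8% of promoters held a match, against 20.2% of those of genes higher and 15.3% of those of genes lower. For Gata4 these shares were 16.8, 22.9 and 13.6%. Among mesothelial genes, the promoters with a match were those of Upk3b, Gpm6a, Krt8, Muc16, Pdpn and Tcf21. Aldh1a2, Bnc1, Cldn15, Krt18, Lrrn4 and Rspo1 held none, and all of these genes were higher with Gata6 below. Among heart-restricted genes with a match, Myh6, Myl7, Nppa and Pln were higher with Gata6, and Mybpc3, Myl2, Nppb and Slc8a1 did not pass. Of those without a match, Ryr2 and Tbx20 were higher, and Corin and Tnni3 did not pass. The table holds no entry for Gata4, Krt19, Msln, Nkain4, Upk1b or Wt1. Promoters on chromosome 18, where Gata6 lies, were left out of the sequences looked at here.

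Gata6 (ENSMUSG00000005836, chromosome 18, 11052064 to 11085635, plus strand, GRCm38) was counted in 2002 of 8565 cells, or 23.4% (95% exact interval 22.5 to 24.3%). By library the share ran from 12.9 to 30.7% with a median of 23.2%, and was 23.0 ± 3.93% (SD, n = 36). Every library thus held Gata6 cells, and the spread between libraries was small against the mean. Its level was 60.9 ± 18.3 CPM (counts scaled to a common library total; SD, n = 36), from 31.5 to 118. Of the Gata6 cells, 961 held 1 count, 361 held 2, 303 held 3 or 4, 243 held 5 to 9 and 134 held 10 or more, up to 143. The 201 Gata6 cells with the most Gata6 held 48.1% of its 7183 counts, so the level of a library rested on a minority of its cells. The gene overlaps 1010001N08Rik, which had 74 counts. Whether the counting used strand is not given in the sources used here, so reads from this overlap cannot be told apart.

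Gata4 (ENSMUSG00000021944, chromosome 14, 63198922 to 63271692, minus strand) was counted in 213 cells, or 2.49%, in 34 of 36 libraries. Library shares ran from 0 to 6.12% with a median of 2.41%, and the level was 3.05 ± 1.89 CPM (SD, n = 36), from 0 to 9.78. Of these cells, 128 held a single count and 10 held 5 or more, up to 9. Gata5 (ENSMUSG00000015627, chromosome 2, 180325133 to 180334699, minus strand) was the least often counted, in 51 cells, or 0.595% (0.444 to 0.782%), of 22 libraries. Its 60 counts gave 0.516 ± 0.566 CPM (SD, n = 36), from 0 to 2.03, and 44 of its cells held a single count. Gata5 overlaps the antisense gene Gata5os, which had 0 counts. Counts were not scaled per gene length, so these values give how often each transcript was counted and no order of expression between the genes.

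The heart factors set beside them lay between Gata6 and Gata4 in this respect. Hand2 was counted in 910 cells, or 10.6%, with library shares from 4.29 to 16.6% and 20.2 ± 7.18 CPM (SD, n = 36). Tbx5 was counted in 447 cells, or 5.22%, with library shares from 0 to 13.9% and 5.30 ± 2.61 CPM (SD, n = 36). The library with the highest Gata6 level, technical replicate 26 with 70 cells, had no Gata4 and no Tbx5 count and the lowest Hand2 level, 7.84 CPM.

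**Figure D1:**
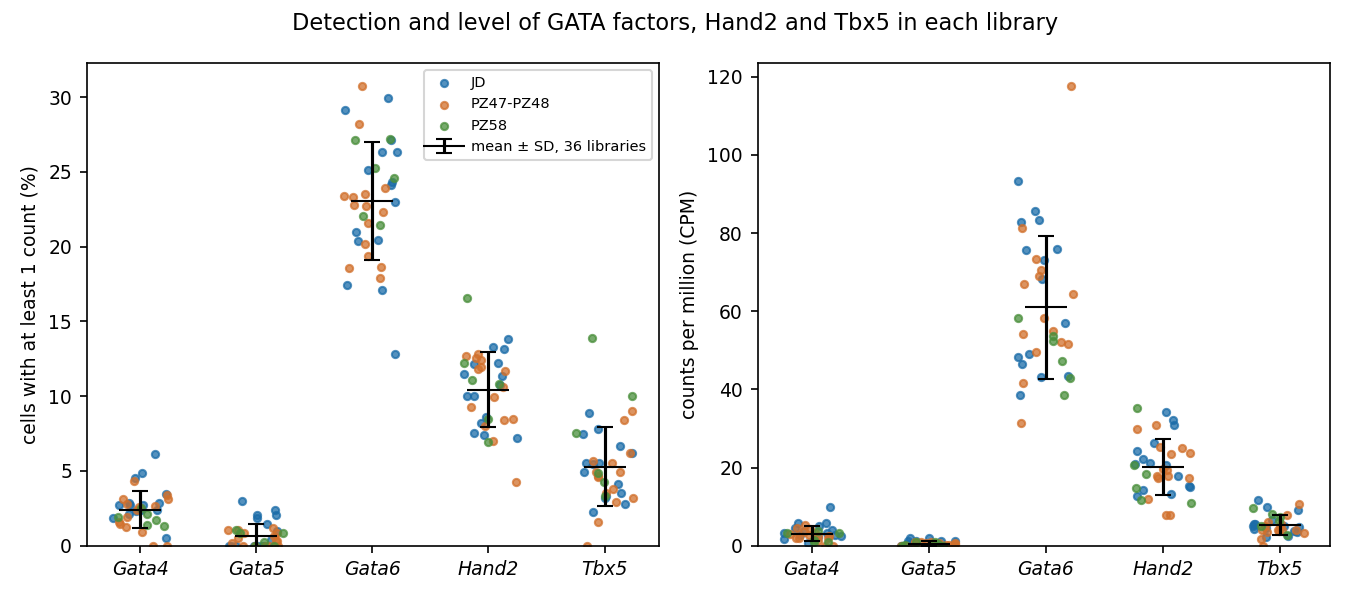
Share of cells with at least 1 count (percent) and level (CPM) of Gata4, Gata5, Gata6, Hand2 and Tbx5 in each of 36 libraries, coloured by library series, with the mean ± SD. Gata6 shares sit between 12.9 and 30.7%, above every Gata4 share (0 to 6.12%), and the colours of the 3 series overlap for each gene.

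The chance of counting a factor rose with the depth of a cell. With cells split by total counts into 4 equal parts (median totals 4639, 7023.5, 11237 and 25593), Gata6 was counted in 14.2, 18.3, 24.2 and 36.8% of cells, while its level stayed at 58.9, 59.5, 69.3 and 56.8 CPM. Gata4 shares in these parts were 1.02, 0.935, 2.78 and 5.21%, and Gata5 shares 0.325, 0.0935, 0.424 and 1.54%. Gata6 cells had a median of 12193.5 counts against 7818 for the others, Gata4 cells 17302 against 8451.5, and Gata5 cells 22507 against 8524.5. When every cell was thinned to 4000 counts, which left out 966 shallower cells, Gata6 was counted in 13.3%, Gata4 in 0.987%, Gata5 in 0.184%, Hand2 in 5.59% and Tbx5 in 2.04% of cells. For this reason each cell with a GATA factor was paired, in all tests below, with 1 cell of its own library without that factor and with total counts within 1.2-fold.

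Across library series the Gata6 level was 64.3 ± 18.4 CPM in JD (SD, n = 15), 62.5 ± 19.9 in PZ47-PZ48 (n = 15) and 48.8 ± 7.36 in PZ58 (n = 6). Gata4 was at 3.85 ± 2.21, 2.57 ± 1.52 and 2.27 ± 1.25 CPM in the same order, and the ranges overlapped for both genes. Free RNA can put a count into a cell that does not make the transcript. Some resident macrophages are known to make GATA6. In the 41 cells with at least 4 macrophage markers, Gata6 was counted in 26.8% (14.2 to 42.9%, median total 8505). This share, without thinning, was no lower than in all cells. After thinning, Gata6 was counted in 7.89% of 38 such cells, against 13.3% of all cells. The interval of the former, 1.66 to 21.4%, includes the latter. The Gata6 level was 36.3 CPM in macrophage-marker cells and 60.0 in all cells pooled, a difference that was not tested. In 7912 cells with none of the marker sets used here (median total 8423) Gata6 was counted in 21.1%. These cells were exposed to the pool as well, so expression and free RNA cannot be told apart for a single Gata6 count. In 102 glial-marker cells (median total 7937) the share was 26.5%, and in 25 endothelial-marker cells, with a median total of 64777, it was 60%. Gata4 was counted in 1 of the 41 macrophage-marker cells (2.44%) and Gata5 in none, which allows a share of up to 7.32%, so neither share can be set apart from background by these cells. Shares that differed between cell types beyond these levels are given below.

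Most cells with a GATA count held only 1 of the 3. At least 1 GATA factor was counted in 2139 cells (25.0%), at least 2 in 121 and all 3 in 6. Gata4 and Gata6 were counted together in 98 cells, Gata5 and Gata6 in 24, and Gata4 and Gata5 in 11. With the partners, Gata6 and Hand2 met in 399 cells, Gata6 and Tbx5 in 151, Gata4 and Hand2 in 52, Gata4 and Tbx5 in 23, Gata5 and Hand2 in 9, and Gata5 and Tbx5 in 9. Any GATA factor, Hand2 and Tbx5 were counted together in 47 cells.

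Gata6 was found more often in Gata4 cells than in matched cells. Of 208 Gata4 cells, 94 (45.2%) held Gata6, against 49 (23.6%) of 208 matched cells without Gata4, a difference of 21.6 ± 3.28 percentage points (SE). It was higher in 22 of 34 libraries and lower in 2 (two-sided permutation of signs over libraries, Benjamini-Hochberg adjusted p = 0.00084 over 126 pairs of a GATA factor and another pool factor). The difference was present in each series, with 48.9 against 26.6% in JD and 42.9 against 23.8% in PZ47-PZ48, and 40.0 against 13.3% in PZ58. Seen from Gata6, Gata4 was counted in 4.31% of 1926 Gata6 cells and 2.08% of their matched cells (2.23 ± 0.369 points, adjusted p = 0.00084 by the same permutation, 23 libraries higher and 2 lower). Both comparisons draw on the same 98 cells with both factors. Gata4 cells with at least 2 Gata4 counts gave a smaller difference from Gata6, 11.0 points with a permutation adjusted p of 0.414, and thinning lowered the Gata4 difference in Gata6 cells to 0.772 points with an adjusted p of 0.177.

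Hand2 was also more frequent in cells with either factor. It was counted in 19.4% of Gata6 cells and 9.40% of matched cells, a difference of 10.0 ± 1.04 points that was positive in 33 of 36 libraries and negative in 2. Its unadjusted permutation p of 1e-05 is the smallest that 100000 resamples can give, and the adjusted p was 0.00084. The share was 18.0 against 9.99% in JD, 20.9 against 8.04% in PZ47-PZ48 and 18.7 against 11.4% in PZ58. Hand2 was counted in 24.5% of Gata4 cells and 13.5% of their matched cells (11.1 ± 3.17 points, permutation adjusted p = 0.0318). Without the cells that held at least 4 mesothelial markers, a setting chosen after seeing the data, the Gata4 difference for Hand2 was 6.06 points (adjusted p = 0.465) and that for Gata6 was 13.9 points (adjusted p = 0.0647).

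Tbx5 showed no such difference that passed the test. It was counted in 7.17% of Gata6 cells and 5.76% of matched cells (1.40 ± 0.960 points, permutation adjusted p = 0.412), and in 9.62% of Gata4 cells and 8.65% of matched cells (0.962 ± 2.14 points, adjusted p = 0.981). In PZ58 all 6 libraries had more Tbx5 in Gata6 cells, 10.6 against 5.57%, while in JD and PZ47-PZ48 the shares were 7.07 against 5.96% and 5.79 against 5.67%. At equal depth after thinning, the difference for Gata6 was 1.53 points with a permutation adjusted p of 0.0181, so the call depended on this setting.

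Over the whole pool, 10 of 42 other factors were higher with Gata6 (23.8% called) and none lower. Besides Hand2 and Gata4 these were the early cardiac mesoderm factor Mesp1, at 9.24 against 5.45%, and Lbh, Meis1, Foxn4, Mef2b, E330017L17Rik, Tbx3 and Msx1. With Gata4, 7 of 42 differed (16.7% called), 5 higher (11.9%) and 2 lower (4.76%). Mesp1 was higher at 22.1 against 7.69%, the muscle factor Mef2b at 27.9 against 15.4%, and Myocd, a co-activator of heart and smooth muscle genes, at 14.4 against 4.81%. The nuclear receptors Nr2f2, at 39.9 against 59.1%, and Rxra, at 21.2 against 34.6%, were lower. With Gata5, 0 of 42 passed (0% called), 5 had an unadjusted permutation p under 0.05, and 50 pairs of cells were available. Gata6 was counted in 46% of Gata5 cells and 28% of matched cells (18 ± 7.62 points, permutation adjusted p = 0.154), a difference not detectable at this depth. Gata5 cells held Hand2 in 18% and matched cells in 20%, and Tbx5 in 16 and 8%.

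**Figure D2:**
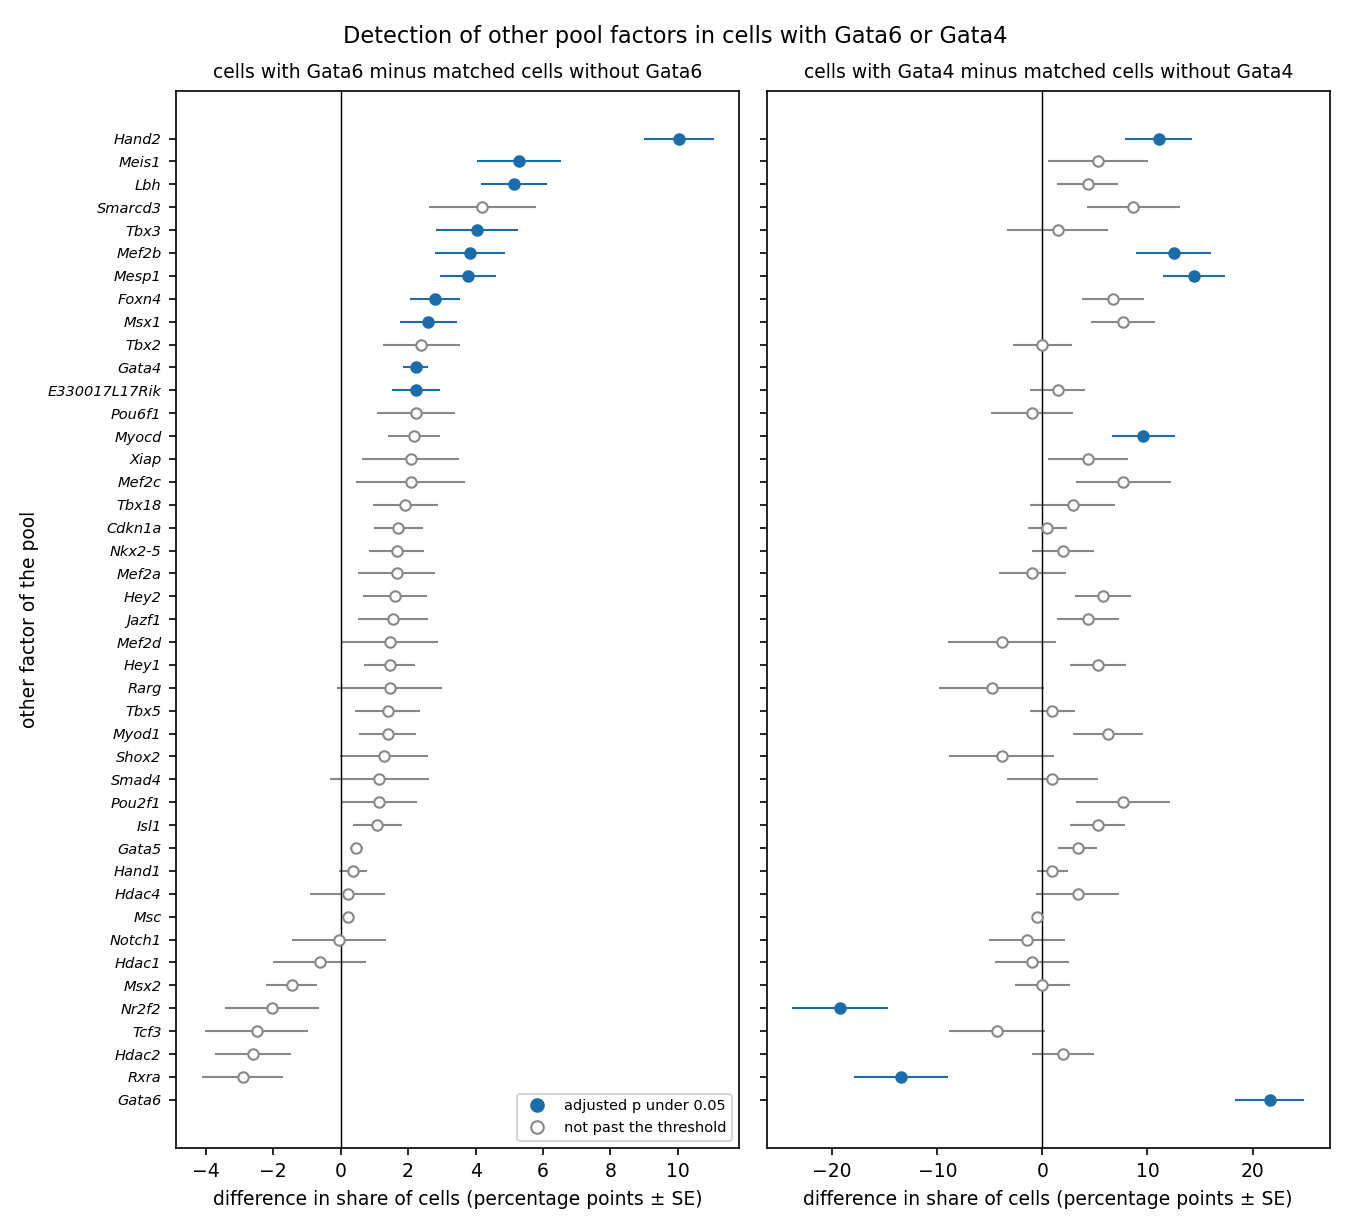
Difference in the share of cells with each other pool factor (percentage points ± SE over libraries) between cells with Gata6 (left) or Gata4 (right) and matched cells without it, filled where the adjusted p is under 0.05 and with different scales on the x axes. Hand2 lies farthest right for Gata6 (10.0 points), Gata6 farthest right for Gata4 (21.6 points), and Nr2f2 farthest left for Gata4 (-19.2 points).

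Mesothelial genes were higher with Gata6 as a group. All 17 of 17 mesothelial marker genes passed the test in Gata6 cells against 1926 matched cells (edgeR, quasi-likelihood, adjusted p under 0.05), none of them lower, with a median log2 fold change of 1.98. Over all 16069 genes tested, 5.42% passed (3.49% higher, 1.93% lower), with a median near 0.00. Upk3b showed the largest fold among those not at 0 in either set. It had 1.94 CPM in the lowest Gata6 library, 42.7 in the median and 124 in the highest, against 0, 1.19 and 47.9 in matched cells. The fold was 4.51 ± 0.267 on the log2 scale (SE, edgeR adjusted p = 1.9e-17). Gata6 cells were higher in 33 libraries and lower in 3, with 1822 counts against 71, although the ranges of the groups overlapped. The shift was of similar size in each series, with pooled log2 ratios of 4.84 for JD, 3.99 for PZ47-PZ48 and 4.62 for PZ58.

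Msln, the mesothelial surface protein mesothelin, had 4.51, 82.4 and 179 CPM in the lowest, median and highest Gata6 library, against 0, 8.36 and 59.8 in matched cells. The fold on the log2 scale was 2.52 ± 0.213 (edgeR adjusted p = 2.7e-12), with 33 of 36 libraries higher. Wt1, the Wilms tumour factor of mesothelium and epicardium, had 2.14, 15.3 and 36.9 CPM against 0, 3.85 and 20.5 (1.98 ± 0.211, edgeR adjusted p = 1.9e-09, 32 libraries higher and 4 lower). Upk1b, which pairs with uroplakin 3 proteins, was higher by 3.75 ± 0.256, and the mesothelial membrane proteins Lrrn4 and Gpm6a by 3.60 ± 0.336 and 3.60 ± 0.282. Muc16, the mucin CA125, had 76 counts in Gata6 cells and 0 in matched cells. The simple-epithelium keratins were higher by 2.31 (Krt8), 1.40 (Krt18) and 0.98 (Krt19), Aldh1a2, which makes retinoic acid, by 1.71, and the epicardial factor Tcf21 by 1.48. The smallest folds of the list were those of Pdpn (0.31), Nkain4 (0.71) and Krt19.

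A summed level cannot tell more cells with a gene from more counts per cell, so cells with several mesothelial genes were counted. At least 4 of 13 mesothelial markers (the list without Krt8, Krt18, Krt19 and Pdpn) were counted in 264 cells of 34 libraries, with a median total of 10888 counts. Of these, 213 (80.7%, 75.4 to 85.3%) held Gata6. After matching on library and depth it was 81.0% of 258 such cells against 21.3% of cells below 4 markers (permutation over libraries, adjusted p = 1e-04, higher in 33 of 34 libraries and lower in none). Hand2 was counted in 46.5 against 9.69% (adjusted p = 1e-04) and Gata4 in 16.7 against 3.10% (adjusted p = 4e-04) by the same permutation test. Gata5 was at 3.10 against 0.388% (adjusted p = 0.126) and Tbx5 at 6.98 against 6.59% (adjusted p = 1). Hand2 thus joined Gata6 and Gata4 in these cells, and no difference passed for Tbx5.

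With 0, 1, 2, 3 and at least 4 mesothelial markers, Gata6 was counted in 17.2, 28.9, 42.6, 48.8 and 80.7% of cells. After thinning to 4000 counts the shares were 10.1, 14.9, 19.7, 23.2 and 52.0%, in the same order. Gata4 shares with 1, 2, 3 and at least 4 were 3.49, 6.09, 9.30 and 16.7%. After thinning they were 1.27, 1.24, 4.8 and 4.8%, so the rise at each step was not seen at equal depth. Taken gene by gene, Gata6 was counted in 87.3% of cells with Muc16, 72.5% of those with Gpm6a, 68.9% with Lrrn4, 59.9% with Upk3b, 57.6% with Wt1 and 44.5% with Msln. The lowest shares of the list were those with Pdpn (27.1%), Krt18 (34.6%), Krt19 (37.1%), Nkain4 (43.4%) and Krt8 (43.5%), against 23.4% of all cells. These shares were not matched for depth.

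**Figure D3:**
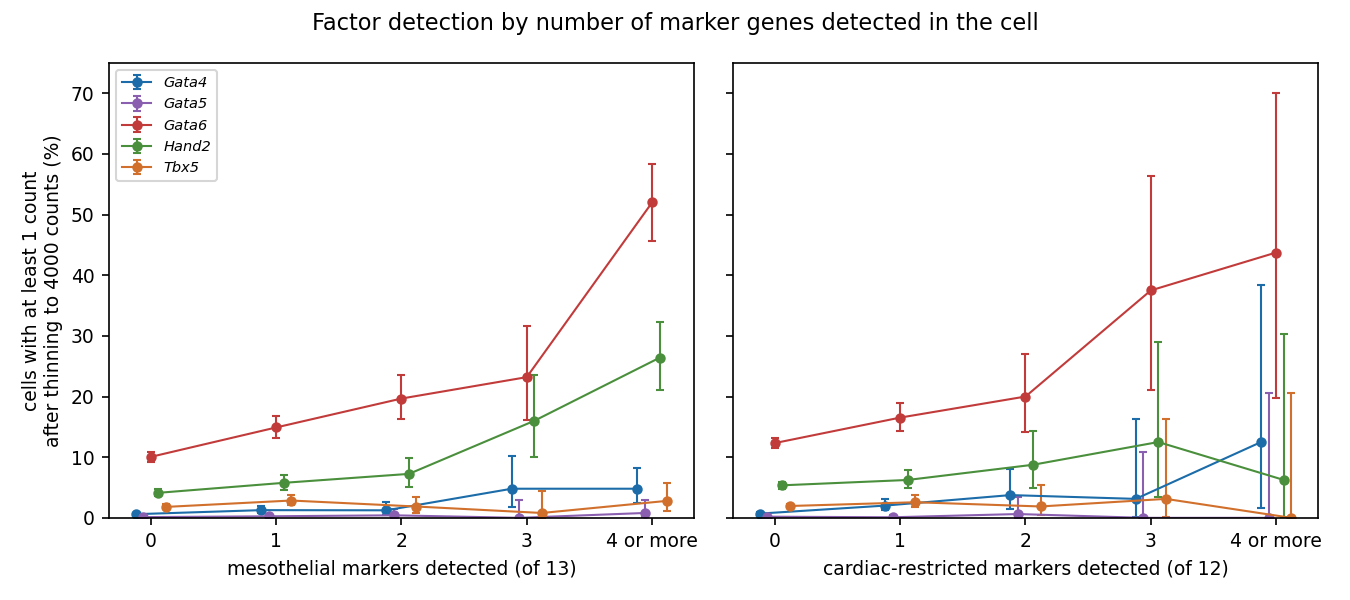
Share of cells with Gata4, Gata5, Gata6, Hand2 or Tbx5 after thinning every cell to 4000 counts (percent, 95% exact intervals) by the number of mesothelial markers (of 13) or heart-restricted markers (of 12) counted in the cell. Gata6 climbs from 10.1% at 0 mesothelial markers to 52.0% at 4 or more.

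From the side of the factors, at least 4 mesothelial markers were found in 0.638% of cells without any GATA factor (41 of 6426, median total 7733.5), 10.6% of Gata6 cells, 20.7% of Gata4 cells and 15.7% of Gata5 cells. These sets differ in depth, as given above. Cells with both Gata4 and Gata6 reached 35.7% (35 of 98), Gata6 cells without Gata4 9.35% (178 of 1904) and Gata4 cells without Gata6 7.83% (9 of 115). A GATA factor with Hand2 and without Tbx5 gave 25.6% (98 of 383), with Tbx5 and without Hand2 8.40% (10 of 119), and with neither 6.73%. Hand2 or Tbx5 without a GATA factor gave 2.61%. Within Gata6 cells, those with Hand2 had 9 of 17 mesothelial genes higher than matched Gata6 cells without Hand2, where edgeR called 1.3% of 13839 genes (1.08% higher, 0.217% lower), with Upk3b up by 2.63 and Wt1 by 1.67 on the log2 scale, while 0 of 11 heart-restricted genes passed (edgeR; 3 at an unadjusted p under 0.05, 0 by DESeq2, no adjusted p for 9).

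In Gata4 cells, 13 of 17 mesothelial genes were higher than in 199 matched cells and none lower (edgeR; 3.14% of 13131 genes called, 2.32% higher and 0.822% lower), with a median of 2.33. Over all genes, edgeR called 304 higher and 108 lower, and DESeq2 241 and 172. Upk3b had 0, 63.0 and 1058 CPM in the lowest, median and highest library of Gata4 cells and 0, 0 and 88.9 in matched cells (4.18 ± 0.429, adjusted p = 2.7e-08, 19 of 29 libraries higher and 2 lower). Upk1b was higher by 4.24 ± 0.397, Msln by 3.43 ± 0.392 and Wt1 by 1.93. Aldh1a1, a retinoic acid enzyme outside the list, was higher by 3.25 ± 0.472 and had the pattern most like that of Gata4 over single cells (Pearson's r = 0.215 over 8565 cells). Tcf21, Cldn15, Krt19 and Nkain4 did not pass. In Gata5 cells, 4 of 14 mesothelial genes were higher than in 50 matched cells (edgeR; 0.507% of 10842 genes called, 0.369% higher and 0.138% lower): Krt8 by 3.96, Upk3b by 2.92, Krt18 by 2.80 and Msln by 2.53. DESeq2 called none of the 14 and gave no adjusted p for 8 of them. Over all 51 Gata5 cells, Upk3b was counted in 7 cells, 1 of which held 56.2% of its 194 counts. For Msln 1 cell held 55.4% of 496 counts. Pooled log2 ratios in JD, PZ47-PZ48 and PZ58 were -1.37, 5.15 and 0 for Upk3b and 3.19, 2.37 and 6.26 for Msln. The 3 comparisons can draw on the same cells, so the lists are given side by side and not as independent results.

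The list called heart-restricted here holds 12 genes made in cardiomyocytes, not all of them confined to the heart. They were higher with Gata6 in 6 of 12 cases, against 3.49% of all genes, and lower in none, with a median of 1.17. Myh6 had 0, 2.92 and 126 CPM in the lowest, median and highest library of Gata6 cells and 0, 0 and 19.5 in matched cells (2.81 ± 0.465, edgeR adjusted p = 6.5e-05, 23 libraries higher and 5 lower). It had 376 counts in the paired Gata6 cells against 31 in matched cells. Over all 2002 Gata6 cells, its 380 counts came from 39 cells, 1 of which held 30.5%. Nppa was higher by 1.63 ± 0.353 (adjusted p = 0.0022, 714 against 195 counts, 21 libraries higher and 12 lower). Pln, the inhibitor of the calcium pump of heart muscle, was higher by 1.91 ± 0.487 on 61 against 9 counts. Myl7 was higher by 1.81 ± 0.481, with 1 cell holding 52.3% of its counts over all Gata6 cells and a pooled log2 ratio of -0.73 in PZ58 against 1.37 in JD and 3.46 in PZ47-PZ48. The heart factor Tbx20 (1.53) and the calcium channel Ryr2 (1.45) passed more narrowly, at adjusted p-values of 0.0406 and 0.0473. Mybpc3 (0.78, adjusted p = 0.479), the troponin Tnni3 (0.38, 0.769) and the ventricular peptide Nppb (-0.19, 0.891) did not pass. With DESeq2, Myh6, Myl7 and Nppa passed, Tbx20 did not (adjusted p = 0.379), and Pln and Ryr2 received no adjusted p.

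The wider cardiomyocyte list had 11 of 30 genes higher with Gata6, against 3.49% of all genes, with a median of 0.73. Tnnt2, the troponin T of heart and embryonic muscle, had 153, 574 and 1119 CPM in the lowest, median and highest library of Gata6 cells and 36.2, 308 and 1538 in matched cells (0.86 ± 0.173, edgeR adjusted p = 7.1e-04, 27 libraries higher and 9 lower). Without the library block its fold was 0.64 with an adjusted p of 0.0587. Cardiac actin Actc1 was higher by 1.43 ± 0.349 and the stretch-responsive Ankrd1 by 0.84. Of 17 skeletal muscle genes, 1 passed, near the share of 5.42% over all genes. It was Des, higher by 0.54, which heart muscle also makes. Cells with at least 4 skeletal muscle markers numbered 83 among Gata6 cells and 60 among matched cells. Without the marker cells of skeletal muscle, macrophage, glia and endothelium, 13 of 30 cardiomyocyte genes and 7 of 12 heart-restricted genes were higher with Gata6 (edgeR; 6.94% of 15684 genes called, 4.27% higher and 2.67% lower). Tnnt2 was then higher by 1.35 and Myh6 by 2.84, and Mybpc3 passed at 1.64 (edgeR adjusted p = 0.0417).

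With Gata4 the cardiomyocyte list shifted further, with 13 of 24 genes higher, against 2.32% of all genes, and a median of 2.28. DESeq2 called 7 of the 24 and gave no adjusted p for 9. Tnnt2 had 110, 1593 and 5174 CPM in the lowest, median and highest library of Gata4 cells and 6.62, 97.0 and 3836 in matched cells (3.65 ± 0.441, edgeR adjusted p = 2.6e-07, 24 libraries higher and 5 lower). Mybpc3 had 0, 16.5 and 1535 CPM against 0, 0 and 14.3 (5.54 ± 0.394, edgeR adjusted p = 5.4e-12, 20 libraries higher and none lower), from 339 against 3 counts. Over all 213 Gata4 cells it had 342 counts in 34 cells, or 16.0%, and 1 cell held 23.7% of them. DESeq2 gave it 3.36 with an adjusted p of 0.170. Tnnc1, the calcium-binding troponin, was higher by 3.37, Myl4 by 3.02, Casq2 by 2.90 and Actc1 by 2.86. Of 8 heart-restricted genes tested, 3 passed: Mybpc3, Myh6 (3.28 ± 0.746, adjusted p = 0.0126) and Myl7 (2.80, adjusted p = 0.0112). The Myh6 value rests on 204 against 8 counts, with 56.9% in 1 cell, and DESeq2 called none of the 8, with no adjusted p for 5 of them.

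Skeletal muscle genes moved with Gata4 as well: 5 of 17 passed, against 3.14% of all genes (Cdh15, Myh8, Mylpf, Tnni2 and Ttn; median 2.10). At least 4 skeletal muscle markers were held by 14 Gata4 cells against 5 matched cells. Without the library that joins technical replicates 4 and 6, 0 of these 17 passed by edgeR. DESeq2 called none of them on all libraries, where 14 had an unadjusted edgeR p under 0.05 and higher values. Without the marker cells of skeletal muscle, macrophage, glia and endothelium, 11 of 20 cardiomyocyte genes and 2 of 7 skeletal muscle genes, Cdh15 and Ttn, were higher with Gata4 (edgeR; 3.45% of 12620 genes called, 2.33% higher and 1.12% lower). Tnnt2 was then higher by 3.35, Mybpc3 by 5.38 and Myh6 by 5.00, while Myl7 was at 2.22 and did not pass (edgeR adjusted p = 0.0656).

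**Figure D4:**
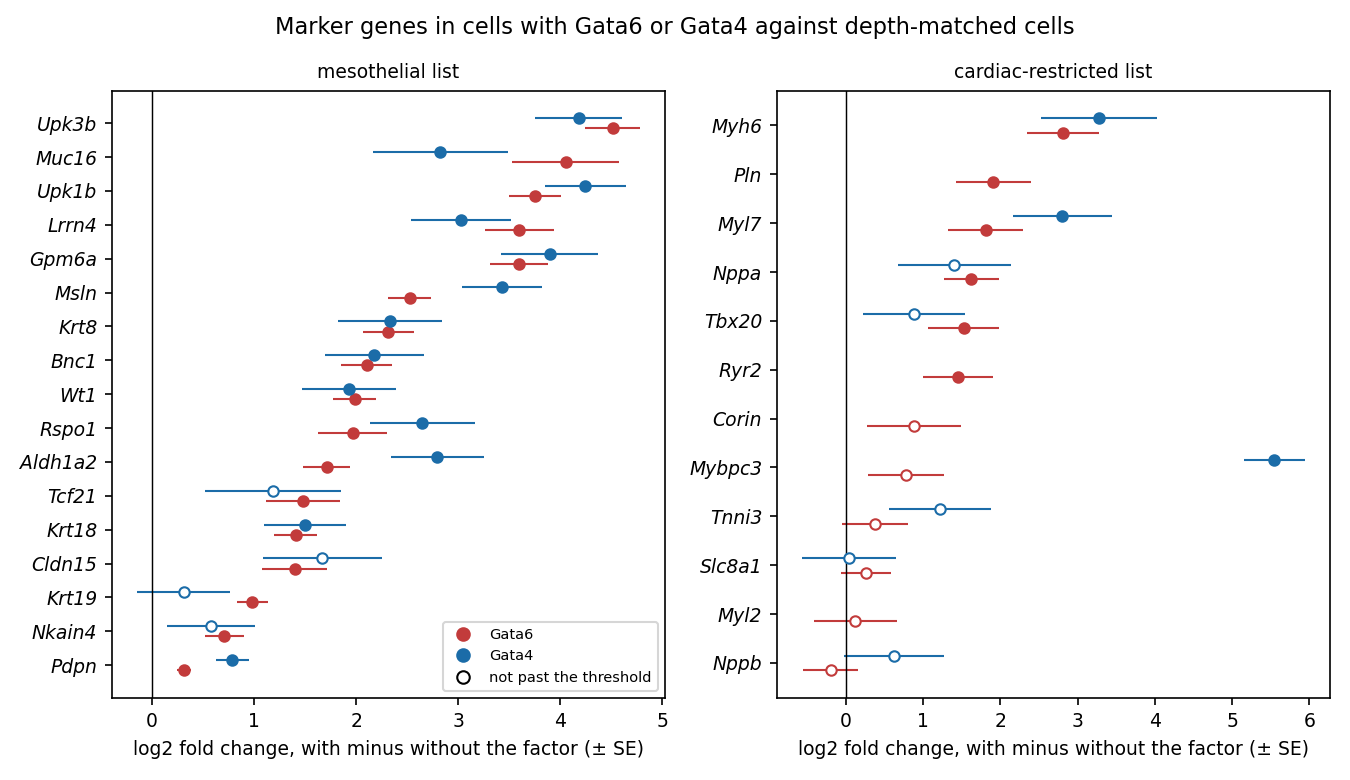
Log2 fold change ± SE of mesothelial and heart-restricted genes in Gata6 cells (red) and Gata4 cells (blue) against their matched cells, with open symbols where the adjusted p is not under 0.05. For Gata6 all mesothelial genes lie right of 0, Upk3b at 4.51 and Pdpn at 0.31, and for Gata4 Mybpc3 lies at 5.54 against 0.78 for Gata6; Muc16 rests on 0 counts in matched cells.

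Direct comparison of Gata4 cells without Gata6 and Gata6 cells without Gata4 used 114 pairs in 34 libraries. In Gata4 cells, 4 of 22 cardiomyocyte genes were higher and none lower (edgeR; 0.177% of 11890 genes called, 0.135% higher and 0.0421% lower), Mybpc3 by 4.57 ± 0.533 and Tnnt2 by 2.43 ± 0.541, and 0 of 14 mesothelial genes passed (2 lower at an unadjusted p under 0.05, 0 called by DESeq2, no adjusted p for 10). Cells with at least 4 skeletal muscle markers numbered 10 among these Gata4 cells and 4 among the Gata6 cells, and 4 of 16 skeletal muscle genes were higher at an unadjusted p under 0.05 (median 1.05), none past the threshold. Their part in the cardiomyocyte values was not tested. Over single cells without matching, Mybpc3 was counted in 16.0% of Gata4 cells, 4.30% of Gata6 cells and 1.03% of cells without a GATA factor, and Tnnt2 in 74.2, 59.4 and 40.8%.

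Cells with at least 2 heart-restricted markers numbered 211, of which 201 were matched (medians 20405 and 19969 counts). Gata6 was counted in 49.8% of them and 29.4% of matched cells (permutation adjusted p = 7e-04, 24 libraries higher and 5 lower), and Gata4 in 13.9 against 3.48% (adjusted p = 0.00528). Hand2 at 18.9 against 14.4% (adjusted p = 0.396), Tbx5 at 13.9 against 9.95% (0.456) and Gata5 at 2.49 against 3.48% (0.867) did not pass by the same permutation test. Leaving out cells with skeletal muscle or mesothelial markers kept Gata6 at 46.4 against 27.2% (adjusted p = 0.00883) and gave Gata4 9.93 against 2.65% (adjusted p = 0.0705). Any GATA factor with Hand2 and Tbx5 gave 8 of 47 cells (17.0%, 7.65 to 30.8%) with at least 2 such markers. Hand2 with Tbx5 without a GATA factor gave 1 of 33 (3.03%, 0.0767 to 15.8%), an interval that overlaps the former. Any GATA factor with Tbx5 and without Hand2 gave 13 of 119 (10.9%), with Hand2 and without Tbx5 23 of 383 (6.01%), and with neither 78 of 1590 (4.91%). These groups were not matched for depth, and their differences were not tested. The summed level of these markers in the 47 cells was 454 CPM, of which 1 cell held 77.2%, and 105 CPM without that cell.

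Gata5 cells had 5 of 16 cardiomyocyte genes higher (Casq2, Myh7, Tnnc1, Tnnt2 and Ttn) and 5 of 15 skeletal muscle genes (Chrna1, Des, Myh3, Mymk and Ttn). Over all genes, 0.369% were higher with Gata5 by edgeR. Myh7, a heavy chain of heart and slow skeletal muscle, had 149 counts against 0, at least 48.9-fold higher with a floor of 3 counts over the group, but from 3 cells, 1 of which held 71.1%. Myod1, the skeletal muscle factor of the pool, was higher by 3.30 and Gata6 by 2.64 ± 0.435 (edgeR adjusted p = 3.3e-04, 307 against 36 counts, 15 of 22 libraries higher and 2 lower). With 50 cells a side, 6 Gata5 cells and 1 matched cell held at least 4 skeletal muscle markers. Without the marker cells of skeletal muscle, macrophage, glia and endothelium, 44 pairs remained, and edgeR called 0.426% of 10105 genes, 22 higher (0.218%) and 21 lower (0.208%), against 40 and 15 with all cells. Casq2, Tnnc1 and Tnnt2 were then the cardiomyocyte genes that were higher, Ankrd1 was lower, and 1 of 6 skeletal muscle genes passed, Cdh15. DESeq2 called none of the cardiomyocyte or skeletal muscle genes on all cells and gave no adjusted p for 7 of 16 and 9 of 15.

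The 264 mesothelial-marker cells were then removed, a setting chosen after seeing the data. Mesothelial genes higher with Gata6 went from 17 of 17 to 4 of 16 (3.22% of 15871 genes called, 1.87% higher and 1.35% lower), which the removal brings about in part by construction. Those 4 were Krt8 (2.23), Krt18 (1.45), Wt1 (1.35, edgeR adjusted p = 1.8e-04) and Aldh1a2 (0.93), while Upk3b fell to 0.14 (adjusted p = 0.97). Heart-restricted genes went from 6 to 4 of 12, with Myh6 at 2.73, Pln at 2.47, Myl7 at 2.06 and Nppa at 1.46. Ryr2, at 1.54 (edgeR adjusted p = 0.0531), and Tbx20, at 1.40 (0.115), no longer passed. With Gata4, mesothelial genes went from 13 of 17 to 1 of 11 (1.86% of 12494 genes called, 1.27% higher and 0.592% lower), Msln at 2.72, and heart-restricted genes from 3 of 8 to 2 of 7. Mybpc3 was at 5.24, Myh6 at 3.40 and Tnnt2 at 4.09, while Myl7 went from 2.80 to 1.88 and no longer passed (edgeR adjusted p = 0.238).

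**Figure D5:**
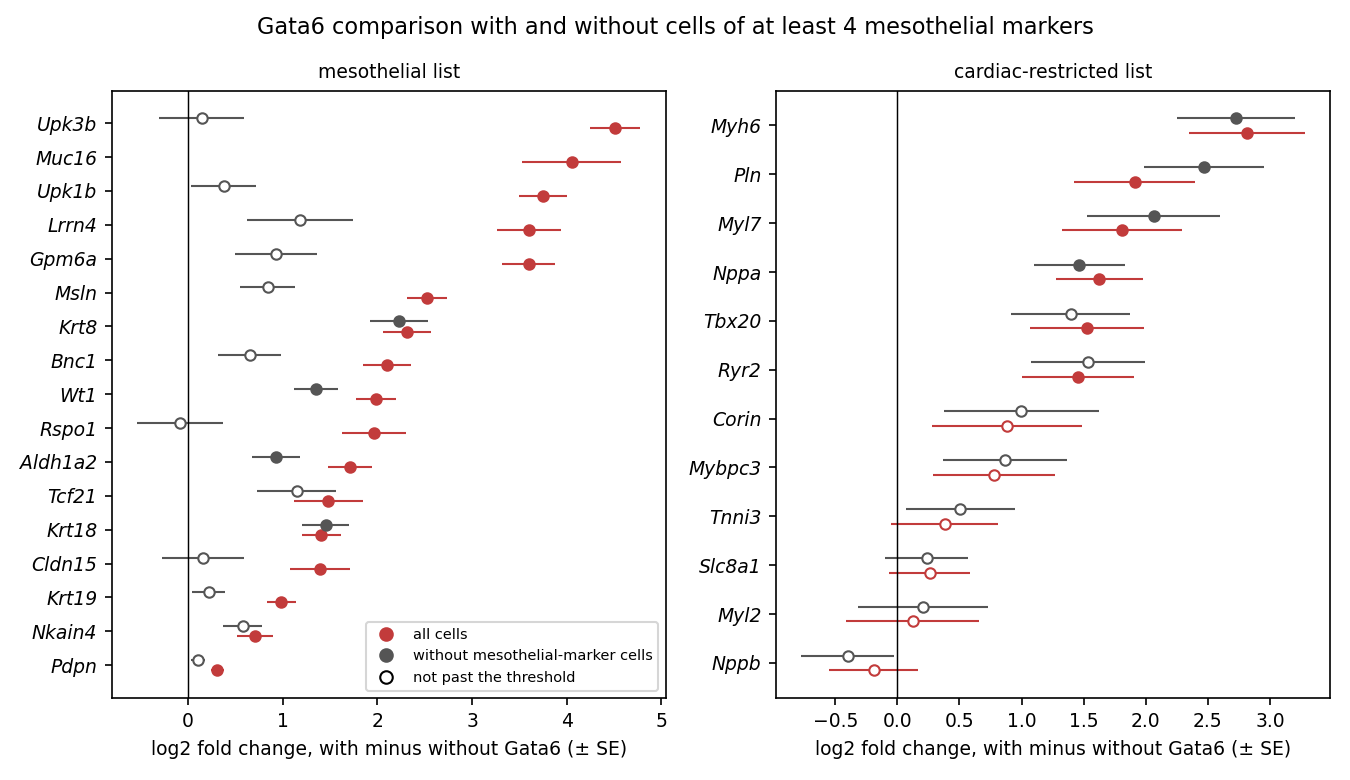
Log2 fold change ± SE of mesothelial and heart-restricted genes in Gata6 cells against matched cells, with all cells (red) and without cells that held at least 4 mesothelial markers (grey). Upk3b moves from 4.51 to 0.14, whereas Myh6 moves from 2.81 to 2.73.

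Levels were also set beside the number of Gata6 counts in a cell. With 0, 1, 2, 3 to 4, 5 to 9 and at least 10 Gata6 counts, the summed mesothelial level was 365, 594, 866, 841, 1325 and 1346 CPM. In the same order the heart-restricted level was 29.8, 36.3, 132, 54.8, 64.4 and 76.6 CPM, highest at 2 counts. That value rests in part on 1 cell: of the 238 Myl7 counts at 2 Gata6 counts, 1 cell held 196. Median totals rose from 7818 to 32233.5 counts, so dose and depth cannot be told apart here. Over all 8565 cells, the genes whose log-scaled levels were most like Gata6 were Upk1b (Pearson's r = 0.231), Tnnt2 (0.229), Upk3b (0.229), Akap5 (0.228) and Msln (0.222). Hand2 had r = 0.122 and ranked 74th, Gata4 0.0841 and Tbx5 0.0400. For Gata4 the next genes after Aldh1a1 were Ildr2 (0.160), Mybpc3 (0.156), Cd93 (0.154) and Bex2 (0.153). For Gata5, Ptgds led with 0.107, on 51 cells with a count. These cells share libraries and depth, and the values are descriptions.

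Genes known from other GATA settings were looked at next, where edgeR called 3.49% of all genes higher with Gata6 and 2.32% with Gata4. The cofactors Zfpm1 and Zfpm2, the FOG proteins that bind GATA zinc fingers, were higher with Gata6 by 0.72 and 0.53, and with Tbx20 made up 3 of 15 cofactor and partner genes past the test (median 0.06). With Gata4, 0 of these 15 passed by edgeR (1 at an unadjusted p under 0.05, 0 by DESeq2, no adjusted p for 7). Of 11 genes of the extraembryonic endoderm, 6 were higher with Gata6, all of them basement membrane genes: Col4a1 (0.51 ± 0.0602, edgeR adjusted p = 2.6e-08, 34 of 36 libraries), Col4a2, Lama1 (1.15), Lamb1 (0.13), Lamc1 and Sparc (list median 0.31). With Gata4, Col4a1, Lamc1, Dab2 and Sparc were 4 of 8. Of 11 gonad genes, 2 were higher with Gata6 by edgeR: Star (2.10), which moves cholesterol for steroid synthesis, and Nr5a1 (23 counts against 0, at least 7.48-fold). With Gata4, 2 of 8 passed: Amhr2, the receptor of anti-Mullerian hormone (37 counts against 0, at least 12.2-fold), and the steroid enzyme Cyp11a1, the latter from 6 cells, 1 of which held 55.8%. DESeq2 called no gonad gene in either comparison, with no adjusted p for 3 of the 11 and 1 of the 8.

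Fibroblast genes did not move as a block. Over all genes, edgeR called 3.49% higher and 1.93% lower with Gata6, and 2.32% and 0.822% with Gata4. With Gata6, Dcn, the matrix proteoglycan decorin, was higher by 1.05 ± 0.117 (edgeR adjusted p = 5.5e-09, 34 of 36 libraries), as were Lum (0.79) and Postn (0.34), whereas the mesenchymal factors Prrx1 (-0.31) and Twist1 (-0.24), Fn1 (-0.13) and Col1a2 (-0.12) were lower, 4 of 14 with a list median of -0.13. With Gata4, Dcn was higher by 1.11, and Mfap5 (-1.24), Prrx1 (-0.75) and Thy1 (-0.68) were lower. Decorin was counted in 71.4% of Gata4 cells, 72.6% of Gata5 cells and 66.9% of Gata6 cells, against 51.5% of all cells. These shares were not matched for depth, with median totals of 17302, 22507 and 12193.5 counts against 8553, so they show no enrichment by themselves. Of the named genes lower with Gata6, Il1rl1, the receptor of interleukin 33, had 0, 16.2 and 39.5 CPM against 0, 37.2 and 121 (-1.23 ± 0.158, edgeR adjusted p = 1.8e-07, lower in 31 of 36 libraries), followed by the cartilage collagen Col2a1 (-1.12), Prlr (-0.96) and Cxcl14 (-0.91). With Gata4, the named genes that were lower included the tendon gene Tnmd (-1.87), Lrrc17 (-1.56), Lrrc15 (-1.29) and the elastin gene Eln (-1.25). The neuronal gene Stmn2 was at -3.50 ± 0.615 (edgeR adjusted p = 3.7e-04, lower in 19 libraries and higher in 4).

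Markers of other cell types were compared in the same way, beside 5.42% of all genes called with Gata6 and 3.14% with Gata4. With Gata6, 0 of 13 macrophage genes (median -0.39), 0 of 10 smooth muscle genes and 0 of 8 endothelial genes passed by edgeR, with 0, 1 and 1 genes at an unadjusted p under 0.05 and none called by DESeq2. Macrophage-marker cells numbered 9 among Gata6 cells and 7 among matched cells. Cryab and Mbp of the glial list were higher with both Gata6 and Gata4, and the summed level of that list was 638 ± 234 CPM in Gata6 cells and 502 ± 181 in matched cells (SD, n = 36). No cell held at least 4 epithelial markers, although Krt14 had 103 counts with Gata6 against 3 (3.76 ± 0.414, edgeR adjusted p = 7.5e-08), a value for which DESeq2 gave 2.43 with an adjusted p of 0.605. Of the cell cycle lists, Mcm5 (-0.40) was the single gene of 15 S phase genes lower with Gata6, and 0 of 15 genes of G2 and M phase passed by edgeR (median -0.23; 6 lower at an unadjusted p under 0.05, 0 by DESeq2). With Gata4, 0 of these 15 passed by edgeR (median -0.63; 6 lower at an unadjusted p under 0.05), and DESeq2 called 3 of them lower.

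Among Gata6 cells, those with Tbx5 were compared with matched Gata6 cells without it in 142 pairs of 33 libraries. Of 7 heart-restricted genes, Myl7 (4.44) and Nppa (2.91, edgeR adjusted p = 0.0098) were higher (edgeR; 0.329% of 12454 genes called, 0.265% higher and 0.0642% lower), but the top cell held 80.7% of the Myl7 counts and that for Nppa 57.7%, and DESeq2 gave no adjusted p for any of the 7. The median was 1.46 over the heart-restricted genes and 1.77 over 16 skeletal muscle genes, of which 9 were higher at an unadjusted edgeR p under 0.05. Car2, a carbonic anhydrase, was higher by 4.01 in 16 libraries and lower in 1. Of 14 mesothelial genes 1 passed, Krt18.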

How the data were processed

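Drop-seq gave 1 count table per library, with cells in columns and genes in rows. What was deposited are raw counts, not normalized, of each gene in each cell. Per the submitters' processing notes, bcl2fastq 2.17.1.14, STAR 2.5.3a, UMI-tools and featureCounts 1.5.3 were used on build mm10. The annotation, strand setting and cell filter are not given in the sources used here. Counts on overlapping genes are therefore uncertain, and nothing in those sources says how reads that map to several places were treated. Positions are from GENCODE M21 (GRCm38), and promoters from RefSeq.

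Of 8730 barcodes, 165 were removed, 89 shared between libraries and 76 within 1 base of another in the same library, each time keeping the copy with the most counts. Depth is that of the cells kept, and intervals (Clopper-Pearson, 95%) cover counting error only. A factor was called at 1 count. Cells with and without it were matched 1 to 1 within a library, with totals within 1.2-fold, and summed per library. Libraries entered with at least 3 pairs for Gata6 and Gata4 and at least 1 for the other comparisons. Genes with at least 20 counts entered a quasi-likelihood fit in edgeR 4.0.16 (R 4.3.3) that was scaled by TMM and blocked by library. A gene was called at an adjusted p under 0.05 (Benjamini-Hochberg). This p covers all genes tested, and the factor itself was left out. Shares of cells with another factor were tested by 100000 random sign changes of the library differences (numpy 2.4.6), two-sided and adjusted over 126 pairs, or over 20 for classes of cells. A class held at least 4 of its markers, or 2 for heart-restricted genes, and both limits were chosen after seeing the data. The genes named are the GATA factors, Hand2 and Tbx5, the 8 highest and 8 lowest folds past the threshold with at least 100 counts and the same sign in each series for Gata6 and Gata4 (4 and 4 for the other comparisons), members of each list by adjusted p, and the mesothelial and heart-restricted lists. Some genes the rule chose are not printed. Members, lists and tests were chosen with earlier results of these data known. On simulated counts, 87 of 100 genes changed 2-fold and all 100 changed 4-fold were found for Gata6, 74 and 100 for Gata4, and 37 and 98 for Gata5, with 4, 2 and 1 false calls. The simulation gave every gene the same dispersion and had no differences between libraries. Changed genes were all raised and had at least 100 counts. The rates need not hold for the real counts, where 1 cell can hold most counts of a gene.

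DESeq2 1.42.0, other count filters, no block, no limit on totals, other factor limits and left-out cells or libraries were the alternatives. Doublets were not called, but 1 alternative left out the deepest 5% of cells of each library.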

Additional observations from a re-analysis of the deposited data

How the results depend on the processing

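With Gata6, 871 genes passed on all libraries, 157 on JD alone, 197 on PZ47-PZ48, 61 on PZ58 and 511 without mesothelial-marker cells. The number of mesothelial genes went from 17 to 11, 11, 6 and 4 in these settings, and that of heart-restricted genes from 6 to 1, 2 and 0 by series and to 3 with DESeq2. With Gata4, 412 genes became 127, 106, 2 and 233, 662 without a filter and 118 when 2 Gata4 counts were required. Its 13 mesothelial genes became 6, 8, 0 and 1, and 7 with 2 counts, and its 3 heart-restricted genes became 0 on PZ58, 1 with 2 counts and 0 with DESeq2. The number of genes called with Gata5 went from 55 to 21 with DESeq2, 34 at 100 counts or more, 145 without a filter and 28 without the deepest 5% of cells. The 41 genes of Gata6 with Tbx5 became 23 with DESeq2. Of all co-detected pairs, 17 passed, 9 on JD, 1 on PZ47-PZ48, 0 on PZ58 and 11 without mesothelial-marker cells. Tested for Gata6 alone, 10 passed, with 6, 1 and 0 by series. The series and the settings that leave out cells or ask for 2 counts use fewer cells, the settings on counts per gene test fewer or more genes, and for DESeq2 the cause was not tested. On PZ58 the sign turned for Fn1 with Gata6 (0.008), Dcn with Gata4 (-0.32) and Thy1 with Gata4 (0.18), all far from the threshold. The replicate numbers only name libraries, and each library holds both sets of cells, so the library is the replicate block. Without that block, 609 genes passed with Gata6, 565 with Gata4 and 206 with Gata5. With DESeq2 the split of higher and lower genes was 241 and 172 for Gata4 (304 and 108 by edgeR), 9 and 12 for Gata5 (40 and 15), 11 and 12 for Gata6 with Tbx5 (33 and 8), and 12 and 13 for Gata4 without Gata6 (16 and 5). Of all values recomputed for named genes, 483 with Gata6 kept direction and side of the threshold, 124 lost the threshold and 1 turned, and with Gata4 355, 146 and 2. For Gata4 and Gata5 the thinned co-detection was not run, since too few cells kept a count. The number of cells limits Gata5 most, with 50 pairs.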
